A study of Zea mays with 18 samples.

Results

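Chilled and control mature zones of maize leaf 4 were compared over every miRNA of the deposited array table. Mature miRNAs are short RNAs that guide an Argonaute protein to transcripts with a matching site, so that in plants the transcript is cut or its translation is held back. Each hairpin precursor releases a duplex of a 5p and a 3p arm; 1 of them, the guide arm, is usually kept and the opposite arm is usually degraded. In leaves, families of miRNAs set the levels of transcription factors of growth and of proteins for copper, phosphate and sulfate supply.

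The members were all maize miRNA rows, and rows with identical values in all 6 group averages were counted once, as 1 profile. This gave 147 profiles from 228 probe sets, all of which were used. The plants were seedlings of the hybrid ADA313 (Zea mays). In the chilled group, leaves came from seedlings whose nights were at 4 °C. In the control group, nights were at 20 °C. Days were at 25 °C in both groups and lasted 16 h, nights lasted 8 h, and the light of 15000 lux and the humidity of 70% were also the same. Each group had 3 arrays, which are called biological replicates in the labels, and the 4 other groups of the series were chilled and control meristem and elongation zone. The labels give neither the length of the chilling nor the position of a zone along the blade, and they do not say whether seedlings were pooled.

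The table holds the authors' average log2 signal of each group and no value of a single array, so the spread behind each difference was recovered from the authors' ANOVA p-value (limma moderated test, adjusted p by Benjamini-Hochberg over the 147 profiles, threshold 0.05). Differences are chilled minus control on the log2 scale, with their SE. An average under log2 2 is called background here, a level set for description. Where 1 of the averages is under background, the difference depends on the floor of the array signal and is not a measured fold. The group medians over profiles were 1.55 in the chilled and 1.68 in the control mature zone, and 91 chilled and 85 control averages were under background. The upper quartiles were 7.11 in the chilled and 6.79 in the control mature zone. The array holds miRNAs only, so the zone could not be checked against marker genes of leaf tissue. The miR396c/d profile, of a family known to be low in dividing tissue and high in mature leaf, stood at 11.41 in the chilled and 11.80 in the control mature zone, and at 6.70 in the chilled and 3.70 in the control meristem. The other guide profiles of the family were near or under background in the mature zone. The miR396a/b-5p profile had 1.93 in chilled and 2.05 in control mature zones, against 1.31 and 1.36 in the meristems. For miR396e/f-5p these values were 1.71 and 1.41 against 1.00 and 0.90. For the profile of miR396g-5p and miR396h they were 1.35 and 1.45 against 1.25 and 1.15. Opposite arms of the family did not all show the order of miR396c/d. The miR396e-3p profile stood at 10.38 in the chilled and 9.79 in the control mature zone, and at 11.12 in the chilled and 10.84 in the control meristem. The miR396g-3p profile stood at 0.72 in the chilled and 1.06 in the control mature zone, and at 3.23 in the chilled and 2.61 in the control meristem.

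Of the 147 profiles, 21 passed the threshold (14.3%), 14 of them lower (9.52%) and 7 higher (4.76%) in the chilled mature zone. Without adjustment, 34 had a p under 0.05. The differences ran from -3.75 to 5.54, with a median of -0.01 and quartiles of -0.29 and 0.22, so the middle part of the profiles lay within 0.29 of 0. Of the 147 profiles, 80 were under background in both groups, and their differences ran only from -0.83 to 0.45. The surplus of falls over rises depended on the scaling: quantile normalization gave 17 lower and 23 higher, and median subtraction 12 lower and 15 higher. Median subtraction moves every difference up by 0.13. Both scalings changed the differences but kept the SE from the unscaled averages. Their p-values therefore carry no change of spread from the scaling. Among the maize miRNA rows of the authors' deposited table none has an ANOVA p above 0.040982. These shares therefore refer to miRNAs already chosen for differing among the 6 groups. In whole leaf tissue, a lower signal from fewer cells that hold a miRNA cannot be told apart from less of it per cell.

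**Figure D1:**
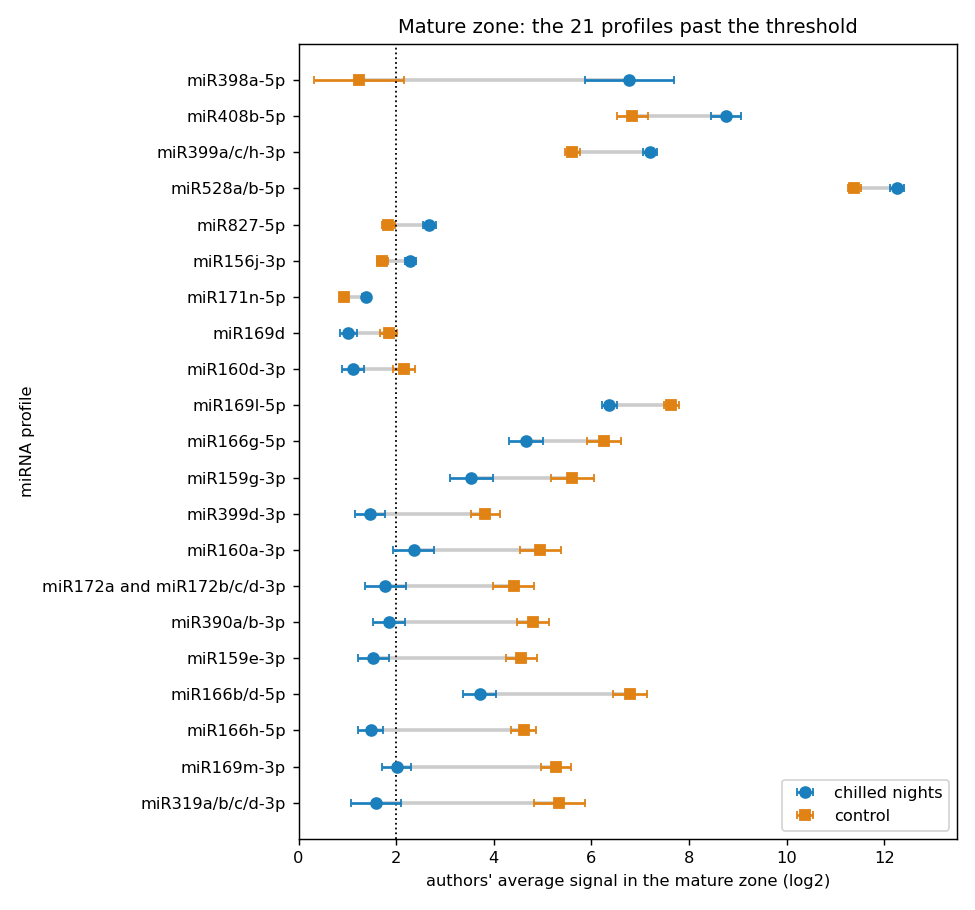
Average log2 signal in the chilled (circles) and control (squares) mature zone for each of the 21 profiles past the threshold, with bars of 1 SE of the average from the moderated recovered SD, and a dotted line at the background level of 2. The chilled averages of 8 of the 14 falling profiles lie left of the line, and miR398a-5p spans from 6.78 in chilled to 1.24 in control leaves.

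Of the 7 profiles of copper-linked miRNAs 3 rose in the chilled mature zone, against 4.76% over all profiles, none fell and 4 did not pass. None of the 7 passed with the SD enlarged by 1.5 times. The list holds miR397, miR398, miR408 and miR528, whose targets in plants are proteins that carry copper: laccases in cell walls, superoxide dismutases with copper and zinc, and small blue copper proteins. The median difference of the list was 0.87, against -0.01 over all profiles. The miR528a/b-5p profile, a guide arm found in grasses, averaged 12.26 in chilled and 11.39 in control leaves (difference 0.87, SE 0.19, adjusted p = 0.00689). The miR408b-5p profile averaged 8.76 in chilled and 6.84 in control leaves (1.92, SE 0.44, adjusted p = 0.00705). Its guide partner, the profile of miR408a and miR408b-3p, averaged 8.87 in chilled and 6.79 in control leaves (2.08, SE 0.69, adjusted p = 0.0611). The guide, with the larger SE, missed the threshold.

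The miR398 family, whose guide arm targets superoxide dismutases, was measured by 3 profiles. The miR398a-5p profile, the arm opposite the guide, averaged 6.78 in chilled leaves and was at background in control leaves with 1.24 (5.54, SE 1.30, adjusted p = 0.00798). The guide profile miR398a/b-3p was at background in both, at 0.96 in chilled and 0.99 in control leaves. The miR398b-5p profile was at background as well, at 1.54 in chilled and 1.38 in control leaves. The single listed arm of miR397, miR397a-3p, had 1.26 in chilled and 1.28 in control leaves. The rise of miR528a/b-5p did not pass with quantile normalization (0.50, adjusted p = 0.0704). The miR408 guide passed with both scalings, at an adjusted p of 0.0399 with quantile normalization and 0.0385 with median subtraction.

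Phosphate-linked miRNAs moved in both directions. The miR399 guide arms lower PHO2, a regulator that limits phosphate uptake, and miR827 targets SPX-domain genes of phosphate handling. The miR399a/c/h-3p profile rose to 7.20 in chilled leaves, against 5.61 in controls (1.59, SE 0.21, adjusted p = 0.000182). The miR399d-3p profile fell to background at 1.46 in chilled leaves, against 3.83 in controls (-2.37, SE 0.43, adjusted p = 0.00136). The other 3 guide profiles of miR399, miR399b-3p, miR399f-3p and miR399g-3p, were at background in both groups. Of the opposite arms, miR399f-5p had 1.98 in chilled and 3.22 in control leaves and did not pass (-1.24, SE 0.45, adjusted p = 0.0878). The miR827-5p profile, the arm opposite the guide, rose to 2.68 in chilled leaves, against a background level of 1.84 in controls (0.84, SE 0.19, adjusted p = 0.00689). The miR827 guide arm was not analysed here.

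Sulfate-linked miR395, whose guide arm targets ATP sulfurylases and a sulfate transporter, showed no profile past the threshold. The 11 identical 3p members miR395a/b/d/e/f/g/h/i/j/n/p-3p averaged 10.20 in chilled and 10.54 in control leaves (-0.34, 95% interval from -1.10 to 0.42). The miR395c/l/m-3p profile averaged 7.01 in chilled and 6.88 in control leaves. The miR395o-3p profile stood at 1.81 in chilled and 2.75 in control leaves (-0.94, SE 0.34, adjusted p = 0.0878). All 5 miR395 5p profiles were at background in both groups. Over the sulfate and phosphate list, 2 of 20 profiles rose, 1 fell and 17 did not pass, with a median difference of -0.02. The share called was 15%, near the 14.3% over all profiles. With quantile normalization 4 rose and 1 fell, and with median subtraction 3 rose and 1 fell.

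Among miRNAs of growth regulators, 7 of 70 profiles fell, 2 rose and 61 did not pass, with a median difference of -0.04. The share called was 12.9%, near the 14.3% over all profiles. With quantile normalization 8 fell and 10 rose, and with median subtraction 7 fell and 4 rose. The shared 3p profile of miR319a/b/c/d-3p acts on TCP factors that end cell division in leaves, and it fell to 1.59 in chilled leaves, against 5.34 in controls (-3.75, SE 0.73, adjusted p = 0.00275). It did not pass with the enlarged SD (adjusted p = 0.0713). The miR172a and miR172b/c/d-3p profile, which acts on AP2-type factors of juvenile and adult identity, fell to 1.78 in chilled leaves, against 4.41 in controls (-2.63, SE 0.59, adjusted p = 0.00705). It did not pass with quantile normalization (-1.45, adjusted p = 0.0838) or the enlarged SD (adjusted p = 0.122). Its relative miR172e had 7.74 in chilled and 8.19 in control leaves and did not pass (-0.45, SE 0.30, adjusted p = 0.491).

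In the miR159 family, which targets GAMYB factors, 2 of 7 profiles fell (28.6%) and none rose. Over all profiles 9.52% fell, and the share in so small a family was not tested. The miR159e-3p profile fell to 1.53 in chilled leaves, against 4.56 in controls (-3.03, SE 0.45, adjusted p = 0.000391). The miR159g-3p profile fell to 3.54 in chilled leaves, against 5.61 in controls (-2.07, SE 0.63, adjusted p = 0.0411), a call lost under 6 of its 12 alternatives, among them quantile normalization (-0.31). The other 2 guide profiles of the family did not pass. The miR159c/d-3p profile averaged 11.96 in chilled and 12.09 in control leaves (-0.13, 95% interval from -0.43 to 0.17), and miR159h/i-3p had 10.54 in chilled and 10.85 in control leaves. Family members are close in sequence, and signal shared between their probe sets was not tested.

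In the miR166 family, whose 3p guide arm targets the HD-ZIP III factors of leaf polarity, the calls were all 5p arms. Of its 11 5p profiles 3 fell (27.3%, against 9.52% over all profiles) and 8 were at background in both groups. This share was not tested. The miR166h-5p profile fell to 1.48 in chilled leaves, against 4.61 in controls (-3.13, SE 0.36, adjusted p = 9.66e-05), the smallest adjusted p of the comparison. The miR166b/d-5p profile fell to 3.71 in chilled leaves, against 6.79 in controls (-3.08, SE 0.48, adjusted p = 0.000423). The miR166g-5p profile fell to 4.66 in chilled leaves, against 6.26 in controls (-1.60, SE 0.48, adjusted p = 0.0401). With quantile normalization miR166b/d-5p (-1.19, adjusted p = 0.0812) and miR166g-5p (-0.58) did not pass. The 4 guide profiles did not pass either, with differences from 0.15 to 0.76, or from -0.10 to 0.18 with quantile normalization. Of these, miR166a-3p averaged 8.76 in chilled and 8.00 in control leaves (0.76, 95% interval from -0.44 to 1.96).

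The size of both rises on the growth list depended on the scaling. The miR156j-3p profile, opposite the SPL-targeting guide, had 2.29 in chilled and 1.72 in control leaves (0.57, SE 0.16, adjusted p = 0.0243). With quantile normalization it differed by 2.14, and its call was lost under 3 of its 12 alternatives. The miR171n-5p profile, opposite the GRAS-targeting guide, was at background in both groups, with 1.38 in chilled and 0.93 in control leaves (0.45, SE 0.13, adjusted p = 0.0281), and differed by 1.18 with quantile normalization. Guides with a high signal on the list did not pass. The largest miR156 profile of 10 identical members averaged 12.62 in chilled and 12.30 in control leaves (0.32, SE 0.19, adjusted p = 0.387). The miR171d/e/i/j-3p profile stood at 11.35 in both groups (95% interval from -0.36 to 0.36). The miR164a/b/c/d/g-5p profile, which targets NAC factors, averaged 11.01 in chilled and 11.35 in control leaves. The miR396c/d profile, which targets growth-regulating factors, differed by -0.39 (95% interval from -1.66 to 0.88).

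**Figure D2:**
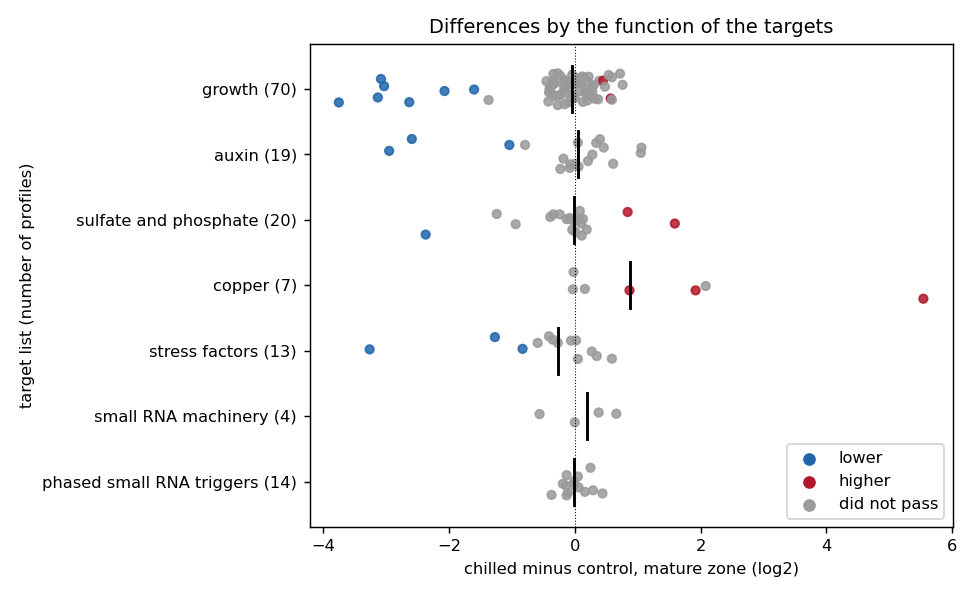
Chilled minus control difference (log2) of each profile in the mature zone, by the function of the family's targets, with the number of profiles in brackets, called profiles in colour and the list's median as a black bar. The copper list has its median at 0.87 and its 3 calls all to the right of 0, while the calls of the stress factor and auxin lists all lie to the left, without rescaling of the groups.

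The auxin list holds miR160 and miR167, which target auxin response factors, miR390, which starts TAS3 small RNAs against the same factors, and miR393, which targets auxin receptors. Of its 19 profiles 3 fell, none rose and 16 did not pass, with a median difference of 0.05. The share called was 15.8%, near the 14.3% over all profiles. With quantile normalization 2 fell and 1 rose, and with median subtraction 2 fell and 2 rose. All 3 falls were arms opposite the guide. The miR390a/b-3p profile fell to 1.85 in chilled leaves, against 4.80 in controls (-2.95, SE 0.46, adjusted p = 0.000423), while its guide miR390a/b-5p averaged 10.22 in chilled and 9.82 in control leaves (0.40, SE 0.21, adjusted p = 0.297). With quantile normalization miR390a/b-3p differed by -1.42 (adjusted p = 0.0297). The miR160a-3p profile fell to 2.36 in chilled leaves, against 4.95 in controls (-2.59, SE 0.59, adjusted p = 0.00705), and with quantile normalization it differed by -0.40 (adjusted p = 0.814). The miR160d-3p profile fell to 1.12 in chilled leaves, against 2.16 in controls (-1.04, SE 0.33, adjusted p = 0.0467), a call lost under 7 of its 12 alternatives.

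None of the guides analysed on the auxin list passed. All 5 miR160 profiles were arms opposite the guide, and the miR160 guide arm was not analysed here. The miR167e/f/g/h/i/j-5p profile averaged 11.54 in chilled and 11.49 in control leaves (0.05, 95% interval from -0.67 to 0.77), and miR167a/b/c/d-5p had 10.86 in chilled and 10.85 in control leaves (0.01, 95% interval from -1.11 to 1.13). The miR393 profiles differed by 0.34 to 1.06 and none of the 4 passed. The guide miR393a/c-5p averaged 7.96 in chilled and 6.91 in control leaves (1.05, SE 0.47, adjusted p = 0.196), and with quantile normalization it differed by 0.46.

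Of the stress factor list, made up of miR169, which targets NF-YA factors linked to drought and nitrogen responses, and miR1432, 3 of 13 profiles fell, none rose and 10 did not pass, with a median difference of -0.27. The share called was 23.1%, against 14.3% over all profiles. With quantile normalization 5 fell and 1 rose, and with median subtraction 2 fell and none rose. The miR169m-3p profile fell to 2.01 in chilled leaves, against 5.27 in controls (-3.26, SE 0.43, adjusted p = 0.000182), and with quantile normalization it differed by -1.34 (adjusted p = 0.0297). The miR169l-5p profile, a guide, fell to 6.37 in chilled leaves, against 7.64 in controls (-1.27, SE 0.21, adjusted p = 0.000814). The miR169d profile was at background in both groups, with 1.02 in chilled and 1.85 in control leaves (-0.83, SE 0.24, adjusted p = 0.0337), and lost the call under 6 of its 12 alternatives. The miR169c-3p profile had 10.58 in chilled and 9.99 in control leaves and did not pass (0.59, SE 0.24, adjusted p = 0.151). The miR1432-5p profile was at background, with 1.02 in chilled and 1.43 in control leaves.

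Among the small RNA machinery regulators, miR162 of DCL1 and miR168 of AGO1, none of 4 profiles passed the main limma test, which gave the calls above. None had an unadjusted p under 0.05 in it. With quantile normalization before the same test, miR162-3p fell (-1.58, adjusted p = 0.00800), with the SE kept from the unscaled averages. The miR168a-3p profile stood at 8.57 in both groups (95% interval from -0.48 to 0.48), and miR162-3p was at background with 1.12 in chilled and 1.68 in control leaves. Both miR168 profiles were 3p arms, opposite the guide. The miR168 guide arm against AGO1 was not analysed here. Among the triggers of phased small RNAs, miR2118, miR2275 and miR482, none of 14 profiles passed the main limma test and 2 had an unadjusted p under 0.05. With other settings of the limma test, 4 rose with quantile normalization and 2 with median subtraction. With a trended robust prior for the spread, a setting without rescaling, 1 rose. Of these 14 profiles 13 were at background in both groups, and the other, miR2275d-3p, had 2.20 in chilled and 1.95 in control leaves.

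Calls were counted by the mean of all 6 group averages, which includes the mature-zone averages themselves. A signal depends on its probe set, so these bands do not rank the miRNAs by amount, and the shares were not tested. Over all profiles 14.3% passed. In this mean, 12 of the 24 profiles between 4 and 7 passed (50%), 10 lower and 2 higher. Between 2 and 4, 3 of 29 passed (10.3%), all lower. At 7 and over, 3 of 37 passed (8.11%), 1 lower and 2 higher, and under 2, 3 of 57 passed (5.26%), all higher. Sets were also formed by background in the mature zone itself, from the same 2 averages that are compared. Their direction is fixed by the set, so their shares of calls are no test. In this sorting, 11 profiles were under background in chilled leaves and at or above it in controls, of which 7 were called. In the other direction 5 profiles were above background in chilled leaves alone, of which miR398a-5p, miR827-5p and miR156j-3p were called. Of the 80 profiles under background in both groups 2 passed (2.5%), against 14.3% over all profiles.

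**Figure D3:**
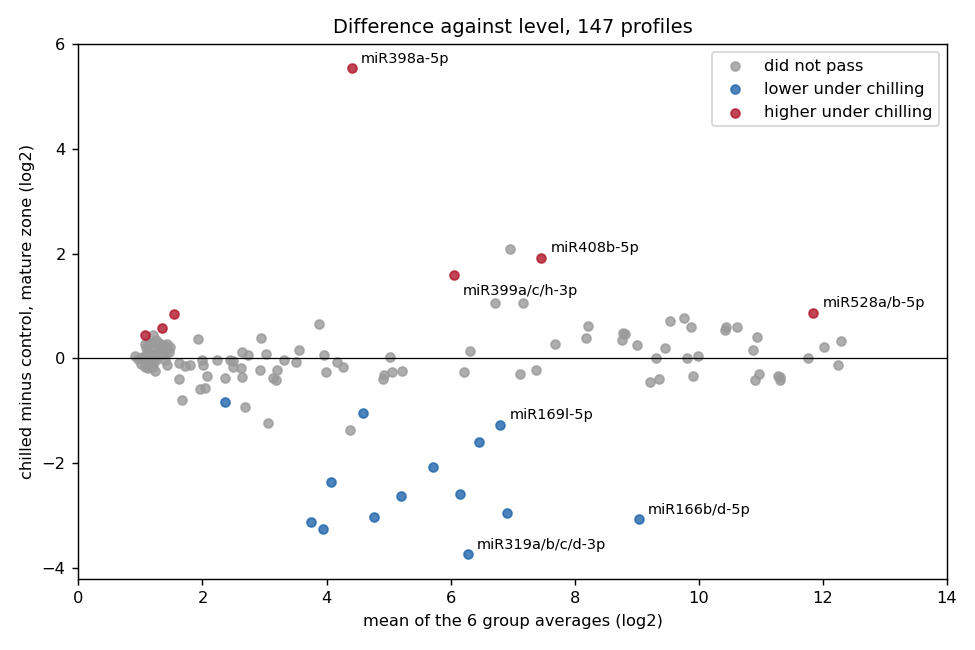
Chilled minus control difference in the mature zone (log2) against the mean of the 6 group averages (log2) for the 147 profiles, with called profiles in colour. Of the 14 falls 10 lie between 4 and 7 on the level axis, a band that holds 24 of the 147 profiles. The level includes the mature-zone averages that are compared, and the band was not tested. The called profile with the highest level is miR528a/b-5p.

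The arms of a hairpin were then set side by side. The guide arm of each family was taken from general knowledge, after the values were known, and a name without an arm was read as the guide. Of the 64 guide profiles 7 fell and 2 rose (14.1%), and of the 83 opposite-arm profiles 7 fell and 5 rose (14.5%), shares that both lie near the 14.3% over all profiles. For 65 pairs of a guide and an opposite profile both were listed. In 5 pairs the guide alone passed, in 9 the opposite arm alone, in none both, and in 51 neither. In 13 of the 65 pairs both arms were above background in a group. Where a profile joins several genes, its pairs share that profile: the 3 falling miR166 5p profiles share 1 guide profile of 8 members, which averaged 8.64 in chilled and 7.92 in control leaves. The miR169m-3p fall stood beside a guide profile at background, miR169m/n/q-5p, with 1.34 in chilled and 1.69 in control leaves. The miR159e-3p and miR172 falls stood beside opposite arms at background, with miR159e-5p at 1.33 in chilled and 1.06 in control leaves and miR172c-5p at 1.04 in chilled and 0.98 in control leaves. The difference between the arms was not tested.

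**Figure D4:**
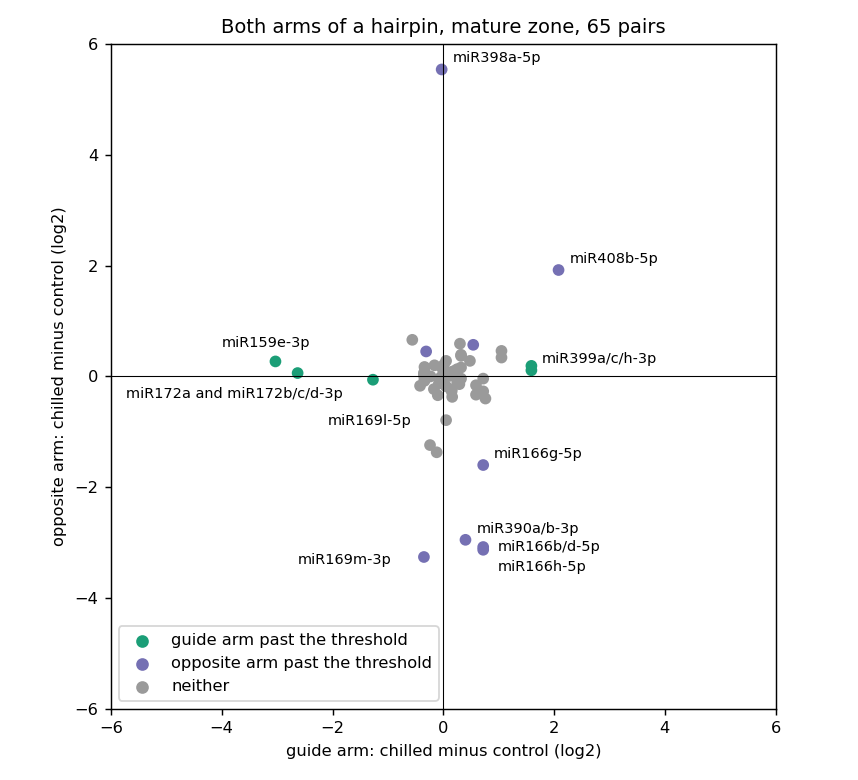
Chilled minus control difference (log2) in the mature zone of the guide arm (horizontal) and of the opposite arm of the same hairpin (vertical) for 65 pairs, coloured by which arm passed the threshold. Most called pairs lie near an axis, with miR408 near the diagonal at 2.08 for the guide and 1.92 for the opposite arm.

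The chilling differences of the mature zone were compared with those of the meristem and the elongation zone by interaction contrasts. Between mature zone and meristem 11 profiles differed (7.48%), and between mature and elongation zone 9 did (6.12%), 15 profiles in all. Of the 21 calls of the mature zone, 9 differed from at least 1 other zone and 4 from both: miR159e-3p, miR166h-5p, miR169m-3p and miR399d-3p. The miR159e-3p difference was -3.03 in the mature zone, 0.19 in the elongation zone (adjusted p of the contrast 0.00914) and 0.64 in the meristem (0.00771). The miR399d-3p difference was -2.37 in the mature zone, 0.80 in the elongation zone (adjusted p of the contrast 0.00914) and 0.56 in the meristem (0.00771). The miR399a/c/h-3p rise of 1.59 stood beside 0.56 in the elongation zone (adjusted p of the contrast 0.0583) and 0.52 in the meristem (0.0465). No profile passed either interaction contrast with the enlarged SD or with 16 residual degrees of freedom.

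For the other 12 calls no difference between zones passed. The miR169l-5p profile also passed in the other zones, with -1.27 in the mature zone, -1.45 in the elongation zone (adjusted p = 0.00142) and -1.94 in the meristem (adjusted p = 5.16e-05). The miR408b-5p difference was 1.92 in the mature zone, 1.49 in the elongation zone and 1.65 in the meristem, and the miR398a-5p difference was 5.54 in the mature zone, 2.47 in the elongation zone and 2.96 in the meristem. The miR319a/b/c/d-3p difference was -3.75 in the mature zone, -0.66 in the elongation zone and -0.72 in the meristem, but its SE of 1.04 for a contrast of zones left the adjusted p at 0.0924 and 0.129. Across the 147 profiles the mature-zone differences had a Spearman correlation of 0.23 with those of the elongation zone and of 0.13 with those of the meristem. The profiles share probe chemistry, and many lie at background.

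**Figure D5:**
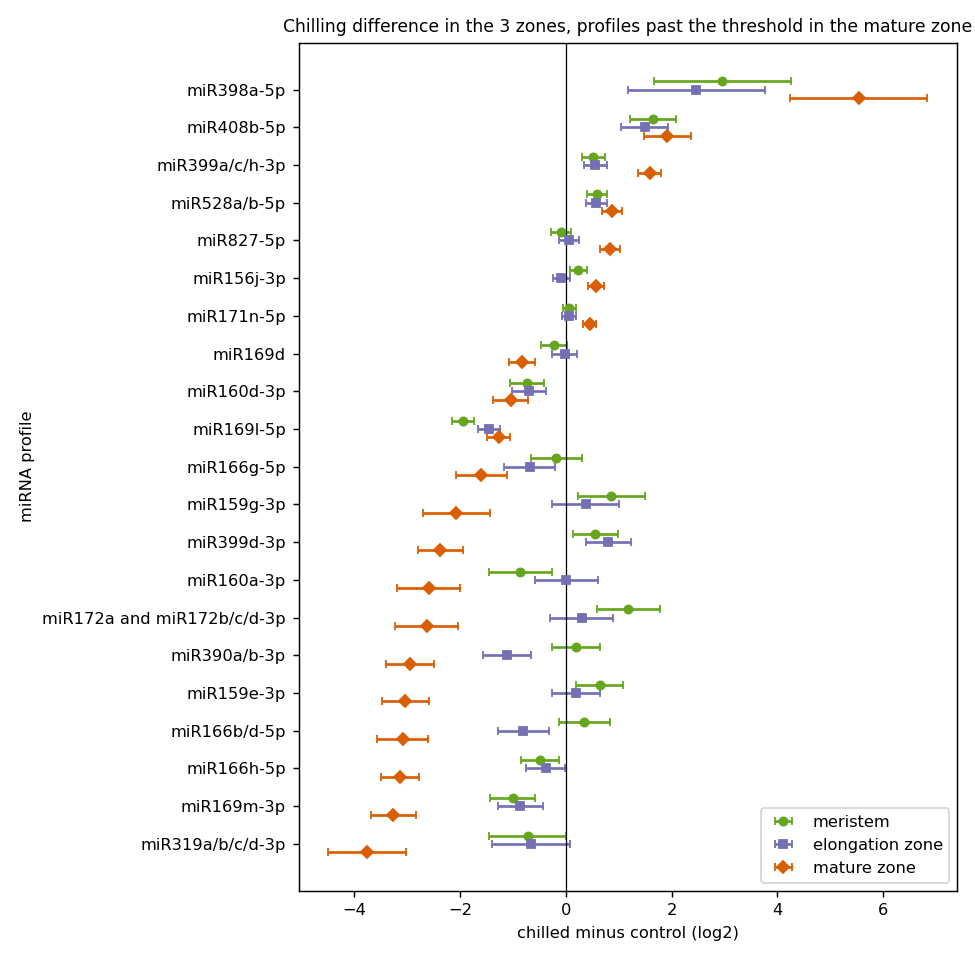
Chilled minus control difference (log2) in the meristem, elongation zone and mature zone for the 21 profiles called in the mature zone, with bars of 1 SE of the difference. The mature-zone values of miR159e-3p, miR166h-5p, miR169m-3p and miR399d-3p lie apart from those of both other zones, while the 3 values of miR169l-5p all lie between -1.94 and -1.27.

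The members come from 157 miRNA genes by name. RefSeq (Zm-B73-REFERENCE-NAM-5.0) lists 150 of them, and 20 pairs of these are direct neighbours, 11 in the miR395 family. The genes of miR399a, whose profile rose, and miR399g are neighbours, and miR399g-3p was at background with 0.78 in chilled and 0.86 in control leaves. The genes of miR169d, which fell at background, and miR169i are neighbours too, and miR169i/j/k-3p had 7.39 in chilled and 7.12 in control leaves and did not pass.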

How the data were processed

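Total RNA was biotin-labelled with the FlashTag kit and run on 18 arrays, 3 in each of 6 groups, per the labels' protocols. The authors deposited bi-weight averages of the log2 signal per group and both the p-value of an ANOVA over the 6 conditions and its FDR p-value, as the file headers name them. The submitters' processing notes name Affymetrix Expression Console. How that software corrected background and normalized arrays, and its version, is not given in the sources used here. Over the maize miRNA rows of the authors' deposited table the ANOVA p-value reaches 0.040982. These rows were therefore preselected on a test that includes this comparison, and the adjusted p-values do not strictly hold their rate. Precision is limited by the number of arrays; there is no read depth.

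The design assumed either single arrays or averages; averages were found. The ANOVA p was turned into F (5 and 12 degrees of freedom), the variance between averages was divided by F, and the recovered variances (median SD 0.34 log2 units) were moderated with squeezeVar of limma 3.58.1 in R 4.3.3 (prior degrees of freedom 1.78). This assumes an ordinary ANOVA, equal spread and that bi-weight averages stand for means. The p-values of each difference rest on this recovered spread over all 6 groups, and the spread within the mature zone alone was not seen. The method was tested on simulated arrays with normal values, equal spread and plain means, so that test could not check the assumptions above. Members and lists were chosen with earlier results of these data known. Every profile past the threshold could be named, besides the 4 of each list with the highest mature-zone signal and the other arm of a call. 12 alternatives were run. No miRNA sequence was used.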

Additional observations from a re-analysis of the deposited data

Results flagged for a closer look

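Chilling effects that differed between zones by the interaction test are listed with the difference of the effects, the mature zone minus the other zone, on the log2 scale. Against the meristem the effect was lower in the mature zone for miR172a and miR172b/c/d-3p (-3.81), miR159e-3p (-3.67), miR166b/d-5p (-3.43), miR396c/d (-3.39), miR390a/b-3p (-3.15), miR399d-3p (-2.93), miR166h-5p (-2.64) and miR169m-3p (-2.26). It was higher for miR160f-3p (1.35), miR399a/c/h-3p (1.07) and miR827-5p (0.93). The miR396c/d value comes from the meristem, where the profile differed by 3.00 between chilled and control tissue, against -0.39 in the mature zone.

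Against the elongation zone the effect was lower in the mature zone for miR159e-3p (-3.22), miR399d-3p (-3.17), miR166h-5p (-2.75), miR169m-3p (-2.40), miR167e-3p (-2.19), miR167g-3p (-1.72), miR399b-3p (-1.20) and the profile of miR396g-5p and miR396h (-0.67). Of these, miR167e-3p, miR167g-3p, miR399b-3p and the profile of miR396g-5p and miR396h did not pass in the mature zone. They differed there by -0.18, -0.79, -0.39 and -0.10, in that order, and by 2.01, 0.93, 0.81 and 0.57 in the elongation zone. The effect was higher in the mature zone for miR160f-3p (1.36). That profile had 7.62 in chilled and 7.01 in control mature zones and did not pass there (0.61, SE 0.23, adjusted p = 0.101), while its differences in the meristem and the elongation zone were -0.74 and -0.75. Both contrasts share the mature-zone groups, so a profile listed under both is not 2 independent results.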

How the results depend on the processing

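No paired analysis was possible because the table holds averages of groups and no array carries its replicate number there; for the same reason no array could be left out. Of the 21 calls, 7 were kept under every alternative that tested them and none changed direction: miR159e-3p, miR166h-5p, miR169l-5p, miR169m-3p, miR390a/b-3p, miR399a/c/h-3p and miR399d-3p. The count of 21 became 32 probe sets (22 lower) with 1 test per probe set, 40 with quantile normalization, of which 15 were among the 21, and 8 with the SD enlarged by 1.5 times. The 11 profiles that differed from the meristem became 19 probe sets, 29 with quantile normalization, 7 with a trended robust prior, and 0 with 16 residual degrees of freedom or the enlarged SD. The 9 that differed from the elongation zone became 5 with 1 test per probe set or the trended prior, 23 with quantile normalization, 26 with median subtraction, 17 by unadjusted p with a difference of at least 1, and 0 with 16 residual degrees of freedom or the enlarged SD. The interaction contrasts had 24 and 27 profiles at an unadjusted p under 0.05. The scalings were computed on group averages of a preselected table, and quantile normalization raised the mature-zone medians by 1.25 in chilled and 1.16 in control leaves. The spread was not rescaled with the averages, so the counts and adjusted p-values under quantile normalization are descriptive. The cause of the changed counts was not tested.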
